A study of Mus musculus with 4 samples.

Results

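The liver response 24 h after an overdose of acetaminophen (APAP) was described from the APAP pool and the control pool of that time point, which are 2 of the 4 pooled libraries of the study. All genes were taken by the symbol the count table gives them. The table had 27027 entries, of which 16095 held more than 3 reads in at least 1 library of the 24 h pair. Male C57BL/6J mice, labelled C57BL/6 and aged 9 to 12 weeks, were fasted for 10 h before an intraperitoneal injection. Controls received 0.9% NaCl as vehicle, and the other mice received APAP at 300 mg/kg. Livers were taken after 24 h or after 48 h, with no genetic change in any group. Hepatic RNA was pooled in equal shares from 6 mice per control group and 7 mice per APAP group, and each pool gave 1 library of massive analysis of cDNA ends (MACE), a method that sequences the 3′ ends of polyadenylated mRNA. Differences between mice are therefore not seen in these data, no p-value can be given, and every interval below covers counting error only.

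In the liver, APAP is converted by cytochrome P450 enzymes to a reactive quinone imine that depletes glutathione and binds to mitochondrial proteins, and the hepatocytes around the central vein, which hold most of these enzymes, die by necrosis. Surviving cells respond with protective programmes. Among these are heat shock proteins, which refold damaged proteins, immediate early transcription factors of the AP-1 family, the integrated stress response, antioxidant enzymes and metallothioneins, while the metabolic work of the hepatocyte is reduced. The dead tissue then attracts neutrophils and monocytes, and the remaining hepatocytes re-enter growth.

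Read totals were 4859661 in the control pool and 5698778 in the APAP pool at 24 h, and 4938164 to 5191990 in the pools of 48 h. Genes with reads numbered from 19637 to 20641 per library, and the 10 genes with the most reads took 16.7% to 17.9% of each library. Counts were divided by median-of-ratios size factors. A count of 3 reads or fewer was set to 3, so a fold against a control pool without reads is a lower bound and is written as "at least". Where the control pool held 1 to 3 reads, the plain ratio of normalised read counts is given with its interval. With this scaling the median log2 fold over all genes tested at 24 h was -0.0015. Scaling by the library totals would raise it to 0.19.

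Of the genes tested at 24 h, 128 passed 5-fold upward in the APAP pool, which was 0.795%, and 102, or 0.634%, passed it downward. With library totals the higher genes made up 69.6% of these calls, against 55.7% here. At 48 h, 76 genes (0.474% of 16018) were higher and 109 (0.68%) were lower against the control pool of 48 h. The overlap was 25 genes higher at both times, 19.5% of the higher genes of 24 h and 32.9% of those of 48 h, and 45 genes lower at both times, 44.1% and 41.3%. This left 103 genes higher and 57 genes lower at 24 h that did not pass the threshold in the same direction at 48 h. No gene passed it in opposite directions. The control pools differed at least 5-fold in 30 genes, or 0.194% of 15459 tested, 15 in each direction. They hold different mice taken at different times after vehicle, so time, mice, pool and library cannot be told apart in this comparison.

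**Figure D1:**
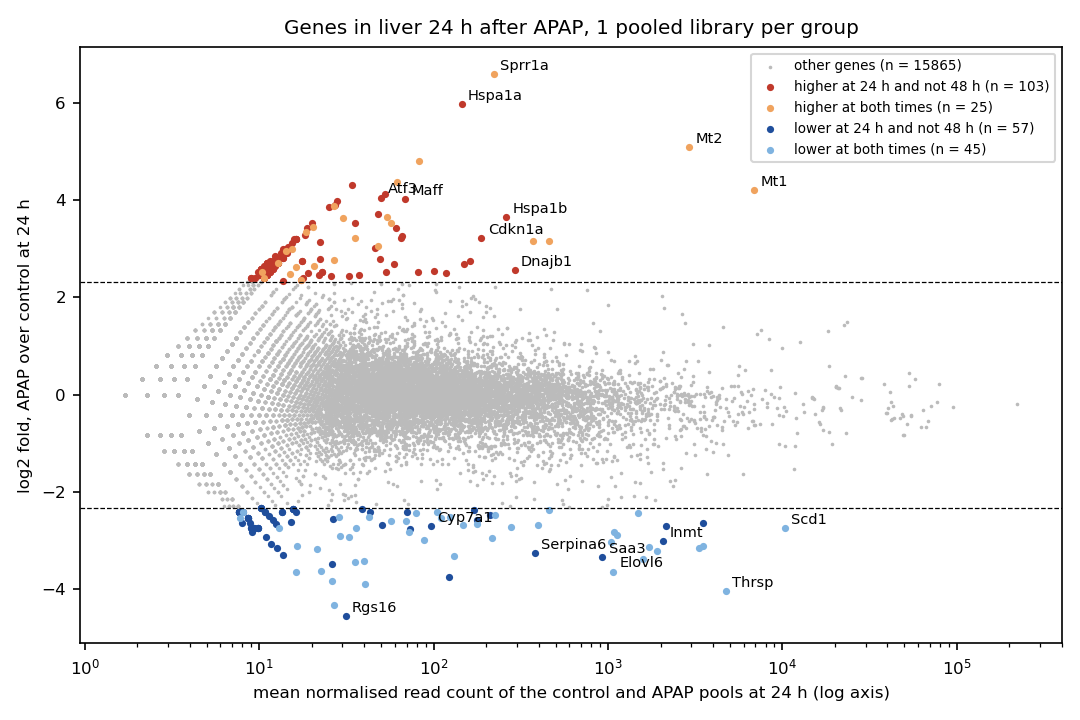
Each point is 1 of the 16095 genes tested at 24 h, with the mean normalised read count of both 24 h pools on a log axis and the log2 fold of the APAP over the control pool on the other axis. Dashed lines mark 5-fold, and many of the 103 genes coloured as higher at 24 h and not 48 h form a line at low read counts on the left, where the control pool held 3 reads or fewer.

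The genes on either side of the threshold were close to each other. Just inside were Tnc, at 5.06-fold with 4 and 27 reads in the control and the APAP pool, and Gm17121, at 5.10-fold with 5 and 34 reads. Frat2, with 0 and 20 reads, lay just outside. On the lower side AC151971.8, H2-T-ps and Xlr3a each fell from 15 to 4 reads and were just inside, and Pklr, 4.96 times lower with 1357 and 365 reads, and Acaca, 4.94 times lower with 873 and 236 reads, were just outside.

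Genes that passed at 24 h and not at 48 h differed in how far they had returned by 48 h. Of the 103 higher genes, 40 were more than 2-fold higher at 48 h, 38 were within 2-fold of control, and 25 held 3 reads or fewer in both 48 h pools and have no fold there. Their median fold was 6.49 at 24 h and 2.03 at 48 h. Of the 57 lower genes, 33 were more than 2-fold lower at 48 h, 21 were within 2-fold, 1 was more than 2-fold higher, and 2 have no fold. The lower genes had medians of 6.01 times lower at 24 h and 2.17 times lower at 48 h. The fold at 24 h was above the fold at 48 h, with the whole counting interval of the ratio above 1, for 31 of the 103 higher genes and for 8.64% of all genes tested. It was below, with the interval below 1, for 27 of the 57 lower genes and for 7.29% of all genes. The definition of these genes, high or low at 24 h and not at 48 h, enters both counts, so nothing is read from them. Set against the control pool of 48 h in place of their own, 77 of the 103 higher genes but 17 of the 57 lower genes still passed 5-fold.

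**Figure D2:**
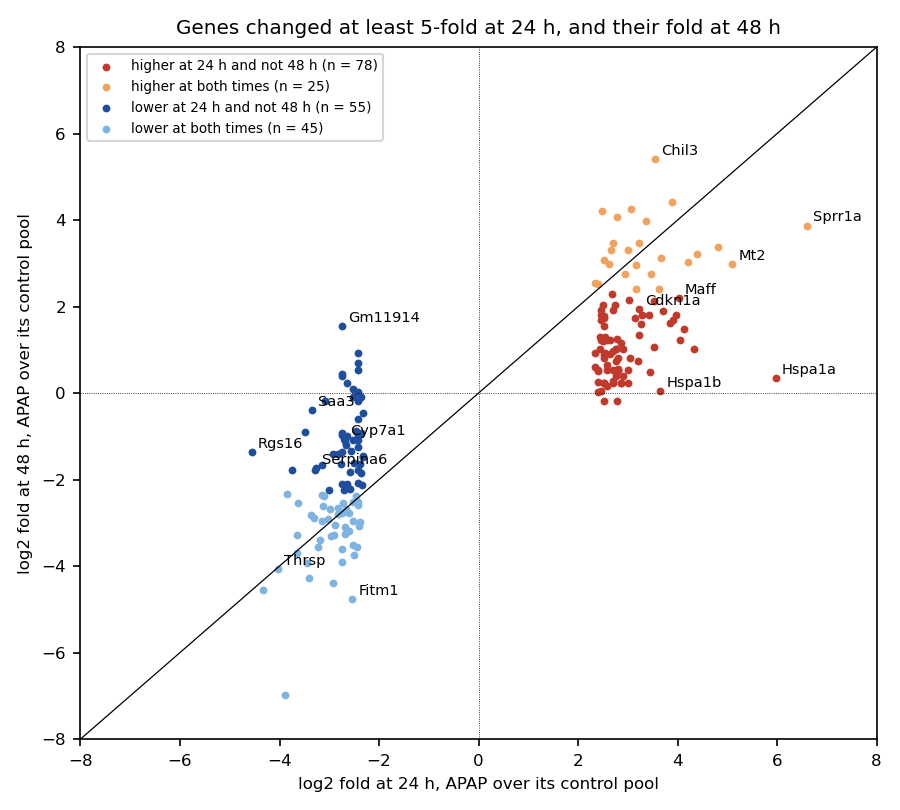
Each point is a gene changed at least 5-fold at 24 h, with its log2 fold at 24 h and at 48 h, each relative to its own control, and the line marks equal folds. Only the 78 of 103, 25, 55 of 57 and 45 genes with a fold at 48 h are drawn, and Hspa1a and Hspa1b lie near 0 at 48 h while Sprr1a and Mt2 stay high.

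Most of the 103 higher entries, 56, were protein-coding genes, 35 were small noncoding RNAs, 4 were entries that the table combines from overlapping genes, and the others were long noncoding RNAs or pseudogenes. In 68 of them 1 library of the 24 h pair was at or below 3 reads. Of the 57 lower entries 27 were protein coding, 14 were processed pseudogenes, 9 were combined entries and none was a small noncoding RNA.

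Inducible heat shock proteins were higher at 24 h and near control at 48 h. Hspa1a, the inducible Hsp70 chaperone, at chr17:34969190-34972156 on the minus strand of GRCm38, had 4 reads in the control pool and 335 in the APAP pool at 24 h and 11 and 16 reads in the 2 pools at 48 h. It was 62.8-fold (24.3 to 232) higher at 24 h and 1.27-fold at 48 h, so that the fold at 24 h exceeded the later one by a factor of 49.3 (12.4 to 228). Hspa1b, a neighbouring copy at chr17:34956436-34959238 that encodes nearly the same protein, had 34 reads in the control pool and 569 in the APAP pool, 12.5-fold (8.87 to 18.3) higher, and 32 and 38 reads at 48 h. Of the 4 libraries, only the APAP pool of 24 h was high for these genes. The last 300 bases of the Hspa1a and Hspa1b transcripts did not match each other at 95% identity over 100 bases.

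The promoter windows of the leading stress genes are shown because heat shock factor and the C/EBP-ATF factors act through short motifs there. RefSeq windows of 300 bases, 250 before to 50 after the start of transcription (build GRCm38.p6), were matched by symbol for 42 of the 103 higher and 27 of the 57 lower entries. Capitals mark the heat shock element core GAANNTTC in the first 3 and the C/EBP-ATF response element TGATGNAA in the last, searched on both strands.
Hspa1a, chr17:34972107-34972406, minus strand: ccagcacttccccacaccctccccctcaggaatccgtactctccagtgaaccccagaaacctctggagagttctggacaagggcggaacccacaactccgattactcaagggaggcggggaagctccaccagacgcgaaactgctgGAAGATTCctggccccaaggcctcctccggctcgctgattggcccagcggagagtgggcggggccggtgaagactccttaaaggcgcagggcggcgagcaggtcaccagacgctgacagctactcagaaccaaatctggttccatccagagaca
Hspa1b, chr17:34959189-34959488, minus strand: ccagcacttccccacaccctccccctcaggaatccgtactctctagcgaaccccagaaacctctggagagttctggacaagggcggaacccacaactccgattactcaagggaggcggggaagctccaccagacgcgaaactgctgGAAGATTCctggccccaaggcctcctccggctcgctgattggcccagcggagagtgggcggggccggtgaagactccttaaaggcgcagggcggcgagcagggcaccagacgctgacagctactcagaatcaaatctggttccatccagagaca
Hspb1, chr5:135887669-135887968, plus strand: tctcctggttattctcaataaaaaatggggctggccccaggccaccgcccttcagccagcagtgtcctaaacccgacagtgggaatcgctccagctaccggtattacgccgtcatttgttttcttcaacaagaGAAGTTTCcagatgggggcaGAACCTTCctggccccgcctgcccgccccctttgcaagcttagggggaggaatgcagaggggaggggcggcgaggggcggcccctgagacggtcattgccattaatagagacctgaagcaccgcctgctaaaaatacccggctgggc
Atf3, chr1:191183284-191183583, minus strand: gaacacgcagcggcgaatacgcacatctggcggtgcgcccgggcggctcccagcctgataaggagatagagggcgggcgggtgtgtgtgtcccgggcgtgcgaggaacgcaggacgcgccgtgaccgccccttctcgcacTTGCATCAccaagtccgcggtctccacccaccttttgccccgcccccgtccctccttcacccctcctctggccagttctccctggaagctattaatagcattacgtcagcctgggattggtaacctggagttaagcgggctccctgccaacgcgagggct
The Hspa1a and Hspa1b windows were identical at 296 of 300 positions. They differed by C44T, T47C, T249G and C276T, with the base of Hspa1a first and positions counted from 1 at the 5′ end of the window. The shared heat shock element GAAGATTC began 104 bases before the start of transcription in both. Hspb1 held 2 cores, GAAGTTTC 117 bases and GAACCTTC 97 bases before the start. The match in Atf3, TTGCATCA, lay on the other strand 110 bases before the start. A core was found in 10 of the 15 heat shock genes with a window, or 66.7%, and in 9.04% of all 27025 genes with windows, and by windows in 52.4% against 7.86%. Dnajb1 and Dnajb4, which were both higher at 24 h, had no such match in their windows. The heat shock core was present in 6 of the 42 genes higher at 24 h and not at 48 h, or 14.3%, which were Hspa1a, Hspa1b, Ankrd1, Inhbb, Lztfl1 and P2rx7. The C/EBP-ATF element was present in 2 of the 42, Atf3 and Lor, or 4.76%, near the 4.51% of all genes with windows. A match describes the letters of a window only, and these shares were not tested.

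Of 19 heat shock proteins tested, 6 were at least 2-fold higher at 24 h with an interval above 1 and none was lower. Over all genes 4.85% were higher and 4.73% lower by this rule, which is the one applied to all lists below. At 48 h the shares were 5% and 4.57%, and the control pools differed in this way in 3.83% of genes. Beside the Hspa1 pair, the Hsp40 co-chaperone Dnajb1 had 74 reads in the control pool and 587 in the APAP pool (5.94-fold, 4.66 to 7.67) and was at 1.12-fold at 48 h. Hspb1, a small heat shock protein that holds unfolded proteins, had 205 and 929 reads (3.395-fold, 2.92 to 3.97) and then 148 and 119 reads at 48 h, and part of its 3′ end matches the pseudogene Hsp25-ps1. The Hsp70 exchange factor Hsph1 had 86 and 302 reads (2.63-fold, 2.06 to 3.38), and the co-chaperone Dnajb4 30 and 95 reads (2.37-fold, 1.56 to 3.71). Constitutive members were close to control, with Hspa8 at 1.18-fold, Hsp90ab1 at 0.917-fold and the mitochondrial chaperonin Hspd1 at 1.11-fold. The median log2 fold of the list was 0.39 at 24 h and -0.53 at 48 h, when no member passed in either direction. The fold at 24 h was above that at 48 h beyond the counting interval in 13 of the 19 and in 8.64% of all genes. The counting interval narrows with reads, and this list summed to 9144 reads in the 24 h control pool. These shares are therefore not alike, and nothing is read from their difference. Zfand2a, a stress-inducible partner of the proteasome that is outside this list and was chosen after its values were seen, had 9 and 65 reads (5.41-fold, 2.68 to 12.4) at 24 h and was at 2.45-fold at 48 h.

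AP-1 and other immediate early factors formed the list with the highest median among the pathway lists, at 1.15 on the log2 scale, and 13 of its 24 genes were higher while 2 were lower. Atf3, a stress-induced repressor and activator of transcription at chr1:191170296-191218039, had 5 reads in the control pool and 111 in the APAP pool, 16.6-fold (6.92 to 52.2) higher, and 9 and 24 reads at 48 h. Maff, a small Maf protein that pairs with NRF2 and AP-1 factors, had 7 reads in the control pool and 152 in the APAP pool, 16.3-fold (7.71 to 41.1) higher, and stayed at 4.57-fold at 48 h. Fos, a core AP-1 subunit, had 1 read in the control pool and 43 in the APAP pool, a ratio of 32.2 (5.48 to 1302). Its relative Fosl1 had 3 and 60 reads, a ratio of 14.98 (4.89 to 74.7), and Jun and Junb, their partners in AP-1, had 34 and 197 reads (4.34-fold, 3.005 to 6.45) and 22 and 140 reads (4.77-fold, 3.03 to 7.85). The growth-associated factors Egr1, with 31 and 235 reads (5.68-fold, 3.895 to 8.55), Myc, with 4 and 36 reads (6.74-fold, 2.42 to 26.1), and Klf6, with 14 and 120 reads (6.42-fold, 3.68 to 12.1), were higher as well. Against the control pool of 48 h, which held 11 reads of Myc, the 24 h APAP pool was at 2.6-fold (1.295 to 5.66) for Myc. Klf10 was 3.66 times lower (2.4 to 5.71) with 85 and 31 reads and was at 0.9895-fold at 48 h, and the repressor Bhlhe40 was 2.55 times lower (1.998 to 3.27). At 48 h, 10 members of the list were still higher, and the median was 0.87.

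Phosphatases that switch off MAP kinases, together with the Gadd45 stress proteins, had 5 of 15 genes higher and none lower. Gadd45b, an activator of stress kinases, had 1 read in the control pool and 46 in the APAP pool, a ratio of 34.5 (5.88 to 1390). At 48 h Gadd45b had 2 and 15 reads, 4.37-fold with the floor of 3 reads and a ratio of 6.56 (1.525 to 59.1) without it. Gadd45g had 15 and 97 reads (4.84-fold, 2.797 to 8.99), while Gadd45a, with 20 and 20 reads, did not pass. Dusp5, a nuclear ERK phosphatase, had 3 and 44 reads (a ratio of 10.99, 3.52 to 55.3) and Dusp1, the early-response MAP kinase phosphatase, 41 and 127 reads (2.32-fold, 1.62 to 3.39).

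The integrated stress response, which follows phosphorylation of the initiation factor eIF2, had 9 of 20 genes higher and 1 lower at 24 h, with a median of 0.75. At 48 h 2 were higher, and the median was 0.22. Ddit3, the CHOP factor of terminal ER stress, had 21 reads in the control pool and 162 in the APAP pool, 5.78-fold (3.66 to 9.59) higher, and was at 1.903-fold at 48 h. Ppp1r15a, the GADD34 subunit that dephosphorylates eIF2, had 19 and 86 reads (3.39-fold, 2.05 to 5.904) and was at 0.972-fold at 48 h. The hormone Gdf15 had 9 and 38 reads (3.16-fold, 1.503 to 7.44) and was at 0.999-fold at 48 h. Cebpb, a factor of the acute liver response, had 401 and 1101 reads (2.06-fold, 1.83 to 2.31). The central factor Atf4, which is regulated mainly in translation, was at 1.14-fold, Trib3 at 1.87-fold and Asns at 1.04-fold, none of which passed. Cth, an enzyme that makes cysteine from cystathionine, was the lower member, at 627 and 394 reads (2.12 times lower, 1.87 to 2.42). The element TGATGNAA was found in the windows of 7 of 21 genes of the list, or 33.3%, and of 4.51% of all genes, and among the 9 higher genes it was present in Chac1 and Nupr1.

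Of 20 chaperones and degradation factors of the endoplasmic reticulum, 4 were higher and none lower, with a median of 0.56. Derl3, a channel component of ER-associated degradation, had 58 and 283 reads (3.66-fold, 2.75 to 4.94), but its control pools differed, with 58 reads at 24 h and 5 at 48 h. The ubiquitin ligase Syvn1 (2.17-fold, 1.62 to 2.96), Creld2 (2.45-fold, 1.91 to 3.17) and Sdf2l1 (2.18-fold, 1.89 to 2.51) were the others. Hspa5, the main ER chaperone BiP, was at 1.85-fold and did not pass.

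Cdkn1a, the p21 inhibitor of the cell cycle and a target of p53, had 32 reads in the control pool and 399 in the APAP pool, 9.34-fold (6.51 to 13.8) higher, and 51 and 223 reads at 48 h, 3.82-fold. Of 19 targets of p53 tested, 3 were higher and 1 lower. The stress kinase Plk3 had 23 and 127 reads (4.14-fold, 2.64 to 6.76) and was at 0.996-fold at 48 h, and Zmat3, an RNA-binding target of p53, had 5 and 31 reads (4.64-fold, 1.79 to 15.3). Mdm2, the ligase that degrades p53, was at 1.798-fold, Ccng1 at 1.302-fold and Bax at 1.87-fold, and the death gene Bbc3 was 2.55 times lower (1.49 to 4.48).

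NRF2 targets moved in both directions, with 5 of 26 higher and 2 lower. Srxn1, which repairs oxidised peroxiredoxins, had 150 and 903 reads (4.51-fold, 3.79 to 5.398) at 24 h and was at 1.83-fold at 48 h. Gsta1, a glutathione transferase, had 81 and 967 reads (8.94-fold, 7.12 to 11.4) and was as high at 48 h, but its last 300 bases match Gm3776 at 99.7%, so that 3′ reads of these genes cannot be told apart. The haem oxygenase Hmox1 had 75 and 224 reads (2.24-fold, 1.72 to 2.95). The classical targets Nqo1, at 1.44-fold, and Gclc, at 1.52-fold, did not pass, and the transferase Gstm3 was 3.46 times lower (2.93 to 4.097).

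The zinc-binding metallothioneins were among the most abundant genes higher at both times. Mt1 had 620 reads in the control pool and 15298 in the APAP pool, 18.5-fold (17.1 to 20.1) higher, and Mt2 145 reads in the control pool and 6645 in the APAP pool, 34.3-fold (29.1 to 40.8) higher. At 48 h they were 8.23-fold and 7.89-fold higher, below the earlier folds by factors of 2.25 (2.004 to 2.52) and 4.35 (3.56 to 5.34). The control pools differed for Mt2, with 353 reads in that of 48 h, 2.296-fold (1.89 to 2.8) of that of 24 h, so the factor for Mt2 holds this difference too. Against the control pool of 48 h the 24 h APAP pool was at 14.95-fold (13.4 to 16.7) for Mt2 and 17.8-fold (16.5 to 19.2) for Mt1. The zinc importer Slc39a14 had 130 and 447 reads (2.58-fold, 2.12 to 3.16) and the metalloreductase Steap4 101 and 313 reads (2.32-fold, 1.85 to 2.94). Sprr1a, an epithelial envelope protein that also appears in injured tissue, had the highest fold of all called genes, with 4 reads in the control pool and 516 in the APAP pool, 96.7-fold (37.5 to 356) higher at 24 h and 14.7-fold at 48 h.

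**Figure D3:**
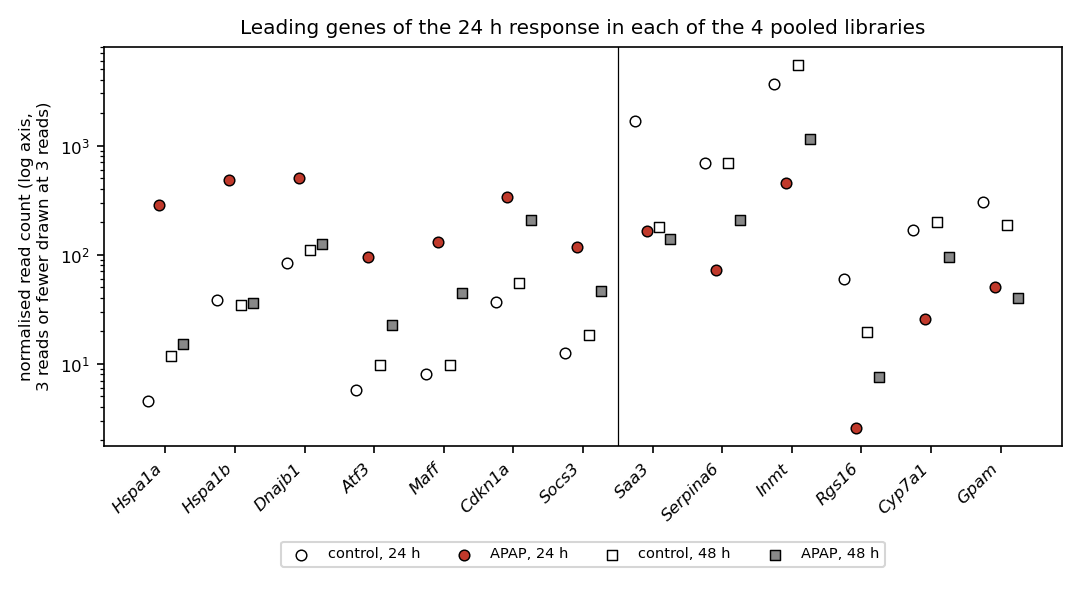
Normalised read counts of 13 genes in the 4 pooled libraries, on a log axis with 3 reads or fewer drawn at 3 reads, circles for 24 h, squares for 48 h and open symbols for controls. The red circle of the 24 h APAP pool lies above the other symbols for the 7 genes on the left, and for Saa3 the high point is the control pool of 24 h alone.

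Acute-phase plasma proteins of the hepatocyte did not move as 1 group against the control pool of 24 h. That pool was itself higher for the list, with 188738 summed normalised reads against 126835 in the control pool of 48 h. By the 2-fold rule, 4 members were lower and 1 was higher in the control pool of 48 h than in that of 24 h. Of 23 genes, 9 were higher and 2 lower, and the median was 0.06. The 3 fibrinogen chains rose together, Fga with 10848 and 40800 reads (2.82-fold, 2.76 to 2.88), Fgb with 10742 and 38760 reads (2.703-fold, 2.65 to 2.76) and Fgg with 9211 and 30483 reads (2.48-fold, 2.42 to 2.54), and were at 1.32- to 1.46-fold at 48 h. The protease inhibitors Serpina3n (2.498-fold, 2.41 to 2.59) and Serpina3m (2.61-fold, 2.49 to 2.74), the iron-scavenging lipocalin Lcn2 (2.38-fold, 2.29 to 2.47), the pentraxin Apcs (2.76-fold, 2.598 to 2.94) and the endotoxin-binding protein Lbp (2.33-fold, 2.01 to 2.71) were higher. Cd14, the endotoxin co-receptor, had 5 and 77 reads (11.5-fold, 4.74 to 36.5) and was at 2.08-fold at 48 h. Its control pool of 48 h held 16 reads, and against that pool the 24 h APAP pool was at 3.82-fold (2.21 to 7.02). Against the same control pool the serum amyloids were not higher, with Saa1 at 0.606-fold and Saa2 at 0.584-fold. Saa3, a serum amyloid made outside the hepatocyte as well, at chr7:46711998-46715700, was one of the 2 lower members, with 1487 reads in the control pool and 195 in the APAP pool, 10.2 times lower (8.76 to 11.9). The control pool of 48 h held 168 reads of Saa3, the ratio of that pool to the control pool of 24 h was 0.107, and the APAP pool of 24 h was at 0.922-fold of the control pool of 48 h. Of the 4 libraries only the control pool of 24 h was high, and the 3 others lay between 147 and 195 reads. Part of its last 300 bases also matched other transcripts.

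Signalling through IL-6 and IL-1 gave 3 higher genes of 14 and none lower. Socs3, the feedback inhibitor of IL-6 signalling, had 11 reads in the control pool and 138 in the APAP pool, 9.399-fold (5.09 to 19.3) higher, and was at 2.52-fold at 48 h. The receptors Il1r1, with 44 and 271 reads (4.61-fold, 3.35 to 6.499), and Osmr, with 8 and 36 reads (3.37-fold, 1.54 to 8.397), were higher, while the cytokine Il1b held 1 and 4 reads and Stat3 was at 1.97-fold. Of 16 subunits and inhibitors of NF-kB, 3 inhibitors or co-regulators passed, namely Nfkbiz (2.997-fold, 1.65 to 5.83), the ubiquitin editor Tnfaip3 (a ratio of 7.49, 1.07 to 325) and the RNase Zc3h12a (a ratio of 8.24, 1.198 to 355), of which Tnfaip3 and Zc3h12a each had 1 control read. With a floor of 10 reads Zc3h12a was at 0.824-fold.

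Chemokines that draw in leukocytes rose in 7 of 15 cases and fell in 1. Cxcl1, which attracts neutrophils, had 5 reads in the control pool and 187 in the APAP pool, 28.02-fold (11.8 to 87.3) higher, and remained 10.4-fold higher at 48 h. Ccl2, which attracts monocytes, had 4 and 30 reads (5.62-fold, 1.98 to 21.9) at 24 h and 3 and 63 reads at 48 h. Cxcl13, a B cell chemokine, held 0 and 18 reads, at least 4.495-fold, and Cxcl14 had 21 and 110 reads (3.92-fold, 2.44 to 6.59). Cxcl9, an interferon-gamma target, was 4.12 times lower (2.099 to 8.67) with 37 and 12 reads and 3.96 times lower at 48 h. Cxcl10 moved the other way at 24 h, with 3 and 25 reads (a ratio of 6.24, 1.905 to 32.3), and was at 1.87-fold at 48 h. Interferon-stimulated genes did not rise as a list at 24 h, with 1 of 22 higher and 4 lower. Their median was -0.11, and its sign turned with library totals or when at least 20 reads were required. The antiviral Rsad2 was the higher one, with 23 and 80 reads (2.61-fold, 1.62 to 4.34), and Bst2, the tetherin of viral particles, was the lower one with the most reads, at 585 and 341 reads (2.29 times lower, 2 to 2.62). At 48 h 4 members were higher and none lower.

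Targets of the growth regulator YAP were higher in 5 of 19 cases and lower in 1, the GTPase regulator Dlc1, with 254 and 163 reads. Ctgf, a matricellular growth factor, had 7 reads in the control pool and 118 in the APAP pool, 12.6-fold (5.94 to 32.1) higher, and Cyr61, its relative, 10 and 74 reads (5.54-fold, 2.85 to 12.04). Ankrd1, a nuclear co-factor, held 0 and 26 reads, at least 6.49-fold higher, and had 0 and 4 reads at 48 h. The scaffold Ajuba had 10 and 66 reads (4.95-fold, 2.53 to 10.8) and was at 1.14-fold at 48 h. Among 21 growth factors of regeneration, 4 were higher and 1 lower. Inhbb, the beta B subunit of activins, had 3 and 39 reads (a ratio of 9.74, 3.096 to 49.3), and the ligands of the EGF receptor Hbegf, with 1 and 15 reads (a ratio of 11.2, 1.73 to 473), and Ereg, with 0 and 10 reads (at least 2.497-fold), were near the limit of counting. The vessel factor Angpt2, with 1 and 13 reads, turned to 0.974-fold with a floor of 10 reads. The hepatocyte growth factor Hgf was at 0.499-fold with 12 and 8 reads and did not pass, and the Wnt ligand Wnt2 was 4.004 times lower (1.21 to 17.03) with 12 and 4 reads.

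Genes of matrix remodelling were higher in 10 of 20 cases and lower in none. Thbs1, the matricellular thrombospondin that activates TGF-beta, had 2 and 63 reads, a ratio of 23.6 (6.27 to 199), and 3 and 12 reads at 48 h. The macrophage elastase Mmp12, with 2 and 41 reads (a ratio of 15.4, 3.99 to 131), the urokinase receptor Plaur, with 2 and 31 reads (a ratio of 11.6, 2.96 to 100.1), and the protease inhibitor Timp1, with 3 and 26 reads (a ratio of 6.49, 1.99 to 33.5), were also high at 48 h. The fibrillar collagens had not risen at 24 h, with Col1a1 at 1.44-fold and Col1a2 at 0.7204-fold, and were 4.497-fold and 3.21-fold higher at 48 h.

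Of 20 tubulins, actins and actin-binding proteins, 5 were higher and none lower, led by Tubb6 with 45 and 230 reads (3.83-fold, 2.77 to 5.39). Of 20 epithelial injury proteins, 10 were higher and none lower. The hepatocyte keratins Krt8, with 827 and 3811 reads (3.45-fold, 3.202 to 3.73), and Krt18, with 1116 and 4716 reads (3.17-fold, 2.96 to 3.38), had lower folds at 48 h. The annexin Anxa2, with 58 and 317 reads (4.09-fold, 3.09 to 5.52), and the lectin Lgals3, with 45 and 173 reads (2.88-fold, 2.06 to 4.09), had higher folds at 48 h, at 7.83-fold and 12.2-fold.

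Genes of DNA replication and mitosis showed no general rise at 24 h. Of 26 G1/S genes 2 were higher, the replicative helicase subunits or partners Gins1 (4.495-fold, 1.54 to 17.8) and Mcm2 (3.104-fold, 1.33 to 8.39), and 2 were lower, Rrm2 (3.56 times lower, 1.597 to 8.701) and Mcm10 (2.7 times lower, 1.86 to 3.97). Ccnd1, the cyclin of G1 entry, was at 1.11-fold. Of 23 mitosis genes 14 held 3 reads or fewer in both 24 h pools, and of the 9 tested the kinase Aurka, with 7 and 30 reads (3.21-fold, 1.38 to 8.66), was higher. Genes of ribosome biogenesis had none of 28 past the rule in either direction, but 24 of them were above 1, with a median of 0.33, and Nhp2 came closest at 1.99-fold. Of 31 proteasome subunits none passed either, 27 were above 1, and the median was 0.18 at 24 h and -0.08 at 48 h.

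Small noncoding RNAs made up 35 of the 103 entries higher at 24 h and not at 48 h, and 32 of them were annotated as ribosomal RNA. Of these, 26 are named as copies of the 5S ribosomal RNA, the small structural RNA of the large ribosomal subunit, and the 3′ ends of the other 6 matched such copies at 100% identity. The 52 entries named as 5S had 21 different sequences, and 25 entries shared the commonest, so reads of one copy cannot be told from reads of another, and how such reads were assigned is not given in the sources used here. Over all 62 entries annotated as ribosomal RNA the sum was 52 reads in the control pool and 1072 in the APAP pool at 24 h, 15.5-fold (11.7 to 20.8), and 31 and 136 reads at 48 h, 3.84-fold (2.58 to 5.87). Their share was 0.0188% of the reads of the 24 h APAP pool. Of 8 tested entries annotated as miscellaneous RNA, 2 were higher at 2-fold and none lower, and their sum over 28 entries was 243 and 702 reads, 2.16-fold. The vault RNA Vaultrc5 had 5 reads in the control pool and 117 in the APAP pool, 17.5-fold (7.302 to 55) higher, and 6 and 19 reads at 48 h. Rmrp, the RNA of RNase MRP, held 0 and 24 reads, and Rpph1, the RNA of RNase P, 1 and 25 reads, and both were chosen after their values were seen. Small nuclear RNAs summed to 73 and 372 reads, 3.82-fold, but none of their 50 tested entries passed 2-fold. Summed, small nucleolar RNAs were at 1.14-fold and microRNA genes at 0.997-fold. MACE selects for poly(A) tails, which these RNAs mostly lack, and the part of their capture in these values was not tested.

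**Figure D4:**
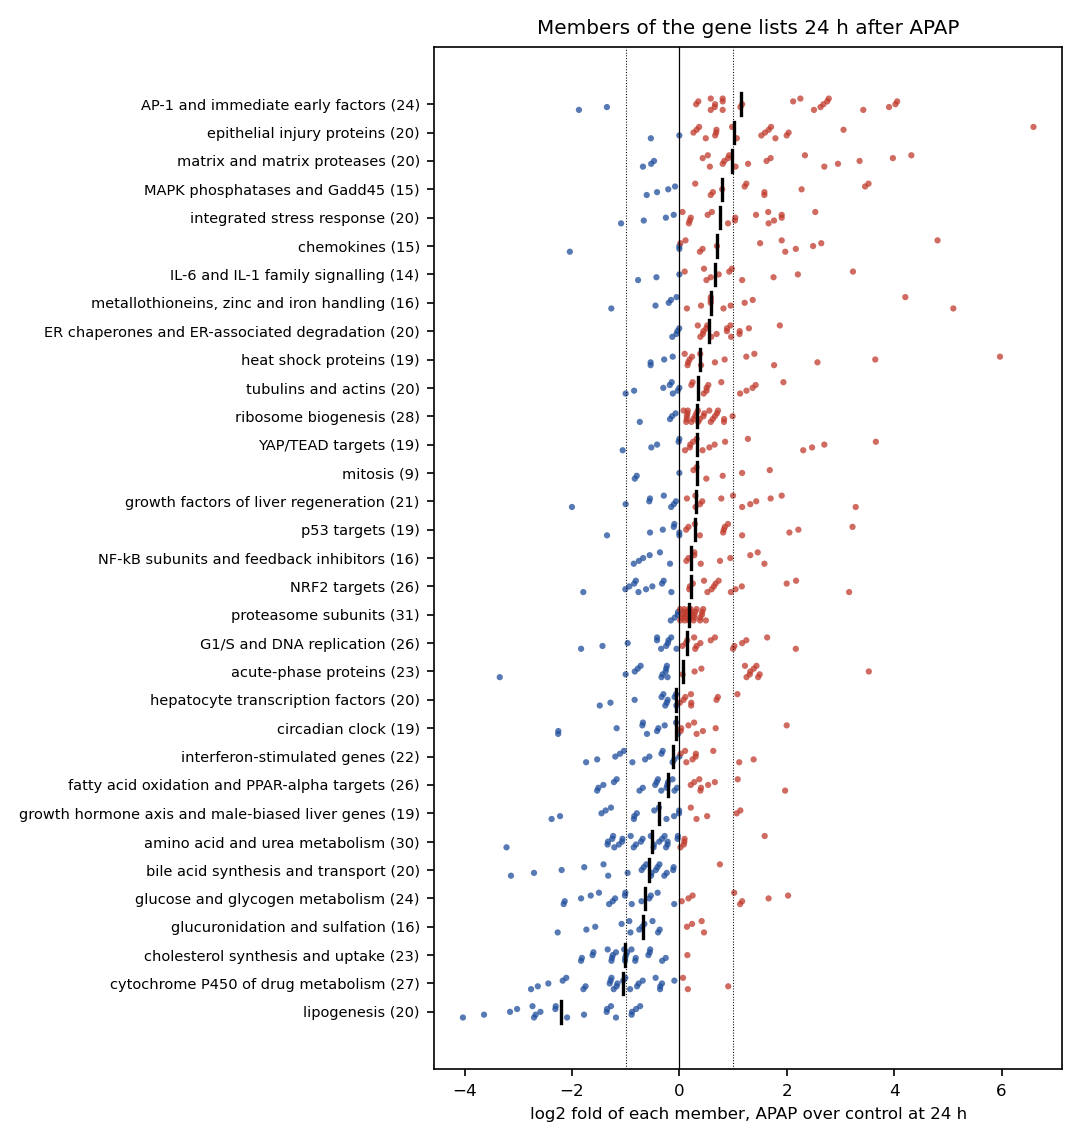
Each row is a gene list, each point a member's log2 fold at 24 h, and the bar marks the list's median at 24 h. The AP-1 list lies highest, with a median of 1.15, and all metabolism lists have medians left of 0, with lipogenesis farthest left at a median of -2.20.

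Among the pathway lists, fatty acid synthesis had the lowest median at 24 h, with 16 of 20 genes lower and none higher. Thrsp, a nuclear protein that promotes lipogenesis, had 7851 reads in the control pool and 640 in the APAP pool, 16.4 times lower (15.1 to 17.8), Elovl6, a fatty acid elongase, 1747 and 187 reads (12.5 times lower, 10.7 to 14.6), Fasn, the fatty acid synthase, 5289 and 792 reads (8.91 times lower, 8.27 to 9.62), and Me1, a supplier of NADPH, 1627 and 267 reads (8.13 times lower, 7.14 to 9.29). They were also low at 48 h, when 15 genes of the list were lower and the median was -2.22. Gpam, which starts glycerolipid synthesis, had 266 and 59 reads and was 6.02 times lower (4.52 to 8.12), and at 48 h it was 4.63 times lower. Acly, the citrate lyase, was 6.54 times lower (6.01 to 7.12) at 24 h and 4.72 times lower at 48 h, just short of the threshold. Elovl6, Me1 and Acly are entries the table combines with a predicted or microRNA gene. Cholesterol synthesis had 12 of 23 genes lower at 24 h and 15 at 48 h, with Sc5d (3.52 times lower, 3.25 to 3.83) and Pmvk (3.56 times lower, 3.09 to 4.12) among them.

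Fatty acid oxidation was divided, with 2 of 26 genes higher and 5 lower. Angptl4, an inhibitor of lipoprotein lipase, had 62 and 324 reads (3.92-fold, 2.98 to 5.22) and was at 0.934-fold at 48 h, and Fabp1, the fatty acid carrier of the hepatocyte, had 15194 and 7007 reads (2.89 times lower, 2.81 to 2.98). Among 24 genes of glucose metabolism 5 were higher and 10 lower. Pck1, the entry enzyme of gluconeogenesis, had 710 and 3853 reads (4.07-fold, 3.75 to 4.41), Pfkfb3, an activator of glycolysis, 9 and 38 reads (3.16-fold, 1.503 to 7.44), and Ldha, lactate dehydrogenase, 2216 and 5997 reads (2.03-fold, 1.93 to 2.13). G6pc, which releases glucose, was 4.397 times lower (3.68 to 5.27), and Pygl, the glycogen phosphorylase, 4.46 times lower (3.997 to 4.97). Pck1 and G6pc, which act in the same pathway, thus moved in opposite directions at both times.

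Amino acid and urea metabolism had 9 of 30 genes lower and 1 higher at 24 h. Beyond the counting interval, 22 of the 30 had a fold below that of 48 h and 4 had a fold above it. Over all genes 7.29% were below in this way. The counting interval narrows with reads, and this list summed to 69511 reads in the 24 h control pool. The shares are therefore not alike, and nothing is read from their difference. The urea cycle enzymes Cps1, at 0.7998-fold, Otc, at 0.533-fold, Asl, at 0.609-fold, and Arg1, at 1.06-fold, did not pass, and Ass1, with 12306 and 7872 reads, was 2.09 times lower (2.03 to 2.15). The last 300 bases of Ass1 match Gm5424 at 99.7%, so that 3′ reads of these genes cannot be told apart. Glul, the glutamine synthetase of the last hepatocytes before the central vein, had 3046 and 436 reads and was 9.32 times lower (8.43 to 10.3). Its entry, like that of Cyp2c29 below, is combined with predicted genes.

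Of 27 cytochrome P450 genes 14 were lower and none higher at 24 h. Cyp2c29 had 5312 and 1139 reads (6.22 times lower, 5.84 to 6.64), Cyp3a11 2215 and 544 reads (5.43 times lower, 4.95 to 5.98) and Cyp1a2 2681 and 793 reads (4.51 times lower, 4.17 to 4.89). Cyp2e1, the main enzyme that activates APAP, had 6910 and 5742 reads, 0.623-fold, and did not pass at 24 h, while at 48 h it was 2.71 times lower. Genes of glucuronidation and sulfation were lower in 4 of 16 cases and higher in none, led by the sulfotransferase Sult2a8 (4.82 times lower, 4.31 to 5.396). Bile acid genes were lower in 6 of 20 cases and higher in none. Cyp7a1, the rate-limiting enzyme of bile acid synthesis, had 147 reads in the control pool and 30 in the APAP pool, 6.54 times lower (4.39 to 10.04), and was 2.097 times lower at 48 h. Cyp8b1, which makes cholic acid, had 2717 and 412 reads (8.802 times lower, 7.93 to 9.79), and the bile acid importer Slc10a1 3104 and 1212 reads (3.42 times lower, 3.198 to 3.66).

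Genes of the growth hormone axis and male-biased liver genes, taken as 1 list, were lower in 5 of 19 cases and higher in 2. The lower ones included Elovl3 (5.21 times lower, 4.4 to 6.19) and Hsd3b5 (4.67 times lower, 3.74 to 5.88). Socs2, a feedback inhibitor of growth hormone signalling, had 29 and 85 reads (2.196-fold, 1.43 to 3.47), but against the control pool of 48 h it was at 0.938-fold. The other was Igfbp1, a binding protein of insulin-like growth factors, with 319 and 892 reads (2.095-fold, 1.84 to 2.39). The clock output factor Dbp, with 104 and 29 reads (4.79 times lower, 3.15 to 7.496), and Per3, with 68 and 19 reads (4.78 times lower, 2.84 to 8.41), were lower, and Per3 shares its entry with Camta1. Per1, the early-response clock gene, with 12 and 64 reads (3.996-fold, 2.14 to 8.13), was higher. Of 19 clock genes 1 was higher and 3 lower, and of 20 hepatocyte transcription factors 1 was higher and 2 were lower, and both medians, -0.06, turned positive with library totals. The hepatocyte factors Hnf4a, at 1.17-fold, and Cebpa, at 0.561-fold, did not pass.

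Other genes with the largest falls confined to 24 h by the 5-fold rule came from no list. Rgs16, a regulator of G protein signalling, had 53 reads in the control pool and 3 in the APAP pool, 23.6 times lower (7.64 to 118), and 18 and 8 reads at 48 h. Serpina6, the corticosteroid-binding globulin, had 604 reads in the control pool and 84 in the APAP pool, 9.597 times lower (7.63 to 12.2), and was 3.33 times lower at 48 h. The methyltransferase Inmt had 3244 and 536 reads (8.08 times lower, 7.37 to 8.87) and was 4.76 times lower at 48 h, and the uridine phosphorylase Upp2, combined with a predicted gene, had 315 and 76 reads (5.53 times lower, 4.29 to 7.204) and was 1.84 times lower. Pdk1, a kinase that inhibits pyruvate dehydrogenase, had 250 and 64 reads (5.21 times lower, 3.95 to 6.97).

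Markers of cell types showed which cells the bulk libraries held, and in bulk RNA fewer cells of a type and less RNA per cell cannot be told apart. Hepatocyte markers had a summed level of 0.832-fold (0.829 to 0.835) at 24 h, and albumin was at 0.873-fold. The 14 pericentral markers had 10 lower and none higher, and their sum fell to 0.371-fold (0.363 to 0.3796) of control at 24 h and 0.288-fold (0.281 to 0.296) at 48 h. Of the P450 list, Cyp2e1, Cyp1a2 and Cyp2c29 are also pericentral markers. The 14 periportal markers had 1 higher and 4 lower and a sum of 0.854-fold (0.849 to 0.859).

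Neutrophil markers had the largest summed fold of the marker lists, with 16 and 262 reads, 12.3-fold (7.41 to 21.8). The calgranulin S100a8 had 5 reads in the control pool and 139 in the APAP pool, 20.8-fold (8.71 to 65.2) higher, and S100a9, its partner, 6 and 75 reads (9.37-fold, 4.11 to 26.3), whereas 8 of the 13 markers, Ly6g, Mpo and Elane included, were at 3 reads or fewer or had no entry. Prtn3, a granule protease of neutrophil precursors and one of the leading genes at 24 h, had 9 reads in the control pool and 130 in the APAP pool, 10.8-fold (5.53 to 24.2) higher, and 27 and 43 reads at 48 h. Monocyte and recruited macrophage markers had 5 of 12 higher and a sum of 2.61-fold (2.26 to 3.01) at 24 h and 5.799-fold (5.08 to 6.64) at 48 h, and Chil3, a monocyte lectin, had 8 and 124 reads (11.6-fold, 5.71 to 27.5). Kupffer cell markers had 1 of 12 higher, Marco (3.06-fold, 2.298 to 4.13), and a sum of 0.923-fold (0.864 to 0.986), with the defining Clec4f at 0.534-fold. Sinusoidal endothelial markers had 1 of 14 higher, Lyve1 (2.62-fold, 1.61 to 4.42). Stellate cell markers had 1 higher, Acta2 (2.16-fold, 1.38 to 3.49), and 2 lower, Lum and Hand2. Of cholangiocyte markers Sox9 (3.97-fold, 2.99 to 5.34) was higher, and Krt19 was at 0.999-fold. The cholangiocyte sum was 1.82-fold (1.61 to 2.07) at 24 h and 1.32-fold (1.18 to 1.49) at 48 h. The heavy chain Ighm, of B cells, was 6.09 times lower (3.85 to 10.03), and 7 of 13 T and NK cell markers were at 3 reads or fewer or had no entry. Of the 6 others Nkg7, a granule protein, was lower, with 8 and 0 reads. None of the 5 erythroid, 3 mesothelial and 1 pancreatic acinar markers that could be tested at 24 h passed in either direction. The median folds of the Kupffer, sinusoidal endothelial and stellate lists, which lay between -0.09 and -0.05 on the log2 scale, turned positive with library totals, and that of cholangiocyte and mesothelial markers changed sign with the control pool of 48 h. The part of changed cell shares in the other results was not tested.

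**Figure D5:**
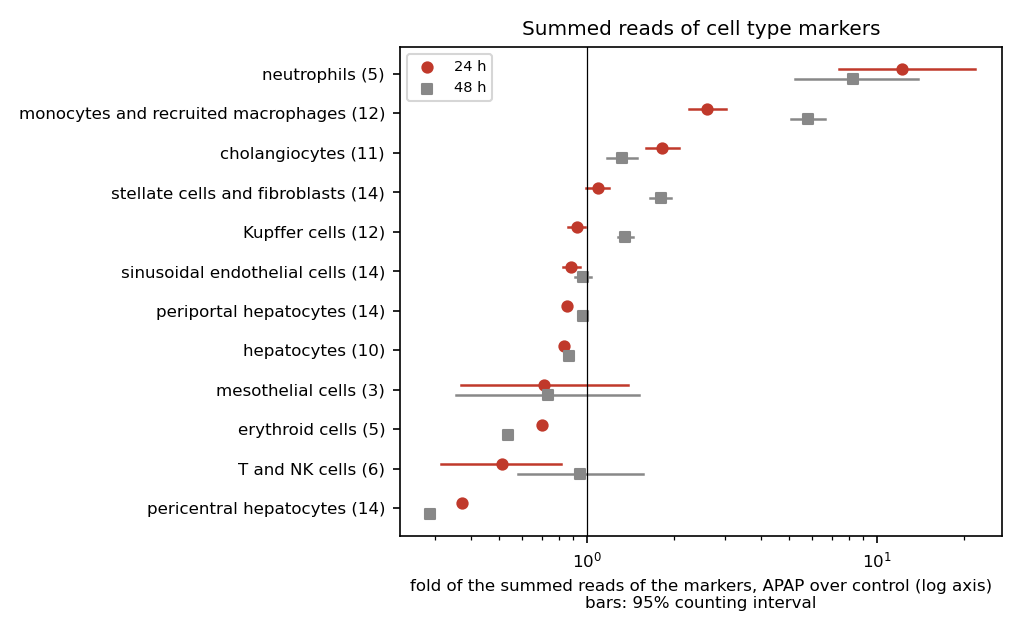
Summed normalised reads of each marker list with at least 3 tested markers, as the fold of APAP over control at 24 h and at 48 h on a log axis, with 95% counting intervals. Neutrophil, monocyte and cholangiocyte lists are among those above 1 at both times, and the pericentral list is among those below 1 at both.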

How the data were processed

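Total hepatic RNA of male mice was DNase-treated and pooled, with 2 µg of RNA per pool, and 3′ ends were sequenced by MACE. The authors removed duplicates by molecular barcodes, trimmed the reads and clipped poly(A), mapped them to mm10 and counted them per gene with HTSeq, and the deposited values used here are these raw counts. Versions of these tools and the handling of reads with several equal positions are not given in the sources used here. RPM columns and the authors' log2 ratios, p-values and false discovery rates were in the same table and were not used, and 0 columns of per-sample values lacked a sample.

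Counts were divided by DESeq2 1.42.0 median-of-ratios size factors over the 4 libraries, with no DESeq2 or edgeR test (R 4.3.3). Counts of 3 or fewer were set to 3. Folds have exact Clopper-Pearson 95% intervals, and ratios of the 24 h to the 48 h fold exact conditional ones (Python 3.11.15, scipy 1.17.1). Both cover counting error only. Calls need 5-fold, and list members 2-fold with the interval on 1 side of 1. The script was tested on simulated counts. Of the entries, 2430 combine overlapping genes and 24536 matched GENCODE vM21 (GRCm38) by Ensembl identifier. Shared 3′ ends were sought with blastn 2.17.0 (last 300 bases, 95% identity over at least 100 bases). Beside the genes marked above, such matches were found for Ajuba, Chil3, Cyp2e1, Cyp3a11, Glul, Ldha, Mcm2, Rrm2, Slc10a1 and Socs2, among others. Their reads may be shared.

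The members and lists were chosen with earlier results of these data known. Named are the 15 genes per direction changed at 24 h and not at 48 h, and 5 per direction changed at both, with the interval bound farthest from 1, up to 4 per direction and list by the same bound, the cell type markers, and genes 5-fold changed in opposite directions, of which there were 0. Other list members, and the genes beside the threshold, were added after their values were seen. Some members of the lists are not reported here by name. Alternatives were edgeR 4.0.16 TMM factors, library totals, size factors within a time, other floors, thresholds and controls, and, added after the data were seen, tables without small noncoding or combined entries.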

Additional observations from a re-analysis of the deposited data

Results flagged for a closer look

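Oasl2, an interferon-stimulated gene related to the oligoadenylate synthetases, had folds on opposite sides of 1 at the 2 times. It had 21 reads in the control pool and 13 in the APAP pool at 24 h, 0.464-fold, and 11 and 30 reads at 48 h, 2.39-fold. The control pool of 48 h was at 0.494-fold of that of 24 h, and against the control pool of 48 h the 24 h APAP pool was at 0.939-fold. It was 1 of 9 genes past 2-fold in opposite directions, of which 4 were higher at 24 h and lower at 48 h and 5 the reverse. With 1 library per group and time, the difference between the times was not tested.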

How the results depend on the processing

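Counts below are in the order higher at 24 h, lower at 24 h, higher at 24 h and not at 48 h, lower at 24 h and not at 48 h, and different between the control pools, where the values above were 128, 102, 103, 57 and 30. A floor of 10 reads gave 34, 56, 25, 20 and 5. A pseudocount of 1 without a floor gave 344, 214, 292, 166 and 347. A 4-fold threshold gave 197, 195, 161, 131 and 89, and an interval bound of at least 5 gave 28, 29, 22, 15 and 6. A minimum of 20 reads in 1 of the compared pools left 28 lower genes of 24 h alone and 13 genes between the control pools. The sum of both control pools left 36 lower genes of 24 h alone, and leaving out small noncoding RNAs left 68 higher genes of 24 h alone. Without the requirement on the interval, 2527 genes were at least 2-fold changed. Library totals gave 167 higher and 73 lower genes and kept 99 of the 103 and 34 of the 57. The control pools were also exchanged, so that each APAP pool was set against the control pool of the other time. With this, 73 of the 103 and 14 of the 57 were kept as genes of 24 h alone.

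Direction turned for Angpt2 (0.974-fold) and Zc3h12a (0.824-fold) with a floor of 10 reads, which raises their control counts to 10, and for Socs2 (0.938-fold) and the median of the T and NK cell list (0.083 on the log2 scale) with the control pool of 48 h. Of the folds of named genes under the alternatives, 1081 stayed within the counting interval and 157 moved past it. No paired analysis was possible because each group had 1 pooled library. For the same reason leaving out a replicate could not be run, and differences between mice and between pools are not measured. Depth limits the genes with few control reads most, and 68 of the 103 higher genes rest on a library at 3 reads or fewer.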
